A study of Mus musculus with 6 samples.

Results

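The genes described here encode subunits of the transcription factor NF-kB and proteins that hold it in check. They are the subunit genes Rel, Rela, Relb and Nfkb2, the IkB genes Nfkbia, Nfkbib and Nfkbie, the nuclear IkB genes Nfkbiz and Bcl3, and Tnfaip3. The subunit gene Nfkb1 is not among the 10. These 10 of the 19505 named genes on the array were chosen by name, with earlier results of these data known. Each had 1 probe set. Total RNA of whole submandibular glands, a pair of large salivary glands, came from 6 female mice aged 10 weeks, with 1 array per mouse. The 3 mice labelled NOD.B6-Myd88+/+ carry the intact adaptor gene, and the 3 labelled NOD.B6-Myd88−/− lack it on both copies. NOD is an inbred strain that develops autoimmune infiltrates of the salivary glands. The labels do not say how the Myd88 allele was made, and they give no separate litters or cohorts. The p-values measure only the spread between these mice.

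NF-kB subunits work as dimers that wait in the cytoplasm, bound by an IkB protein. When a Toll-like receptor or an interleukin-1 receptor signals through Myd88, the IkB kinase complex marks IkB for destruction, and the freed dimer enters the nucleus and switches on inflammatory genes. Several of those genes encode its own subunits and inhibitors, so their transcripts are known as feedback targets of the pathway. A slower, alternative route, driven by lymphotoxin, CD40 and BAFF receptors, releases dimers of RelB and the Nfkb2 product.

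In these glands 9 of the 10 genes had a lower mean in Myd88-/- than in Myd88+/+ mice, and none passed the test across all probe sets. The median log2 difference of the 10 was −0.27 against 0.0096 over all named genes, and 47.5% of all tested probe sets had a lower mean. Without Myd88+/+ replicate 3 the median of the 10 was −0.15. Bcl3 was 1.597-fold and Tnfaip3 1.48-fold lower. The means of both genotypes for Bcl3, and the knockout mean for Tnfaip3, lay below the background controls, which leaves these sizes uncertain. Relb alone among the 10 had a higher mean, by 0.19 on the log2 scale. Much of the spread lay within the Myd88+/+ group, where replicate 3 had the highest value for 8 of the 10 genes.

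All values are deposited log2 expression values, normalized between arrays, so a difference of 1 is a 2-fold change. Array medians were 6.0 to 6.1, and 23 background control probe sets had a median of 5.55, called background here. A larger set of 5222 negative control probe sets had a higher median, 6.14. Rel, Rela, Nfkbia and Nfkbib lay above both medians in every mouse, while all 6 values of Relb, Nfkb2, Nfkbie and Bcl3, 4 of Nfkbiz and 5 of Tnfaip3 lay below the negative control median. The signal span of an array, its 90th minus its 10th percentile, ran from 6.83 to 7.30 log2 units, and was narrowest in Myd88-/- replicate 3 at 6.83 and Myd88-/- replicate 1 at 6.95. Values of single mice are given in the order of replicates 1, 2 and 3 throughout. Myd88 itself had 7.81, 7.86 and 7.53 in the Myd88+/+ mice and 7.33, 6.80 and 7.47 in the Myd88-/- mice. These groups did not overlap, but the probe set stayed above background in every knockout gland, and the sources used here do not say whether it lies in the deleted part. All 8 measured markers of salivary acinar cells had a mean above the background median, among them the transcription factor gene Bhlha15 and the water channel gene Aqp5. The strain name pairs NOD with B6, so DNA around Myd88 or elsewhere may be of B6 origin, and its part in the differences was not tested. None of the 10 genes is on the chromosome of Myd88. RNA came from whole glands, so fewer cells of a type and less RNA per cell cannot be told apart.

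The start regions of these genes are shown because several hold the short sequence that NF-kB itself binds, the kB motif. RefSeq promoter windows of build GRCm38.p6, from 250 bases before to 50 bases after a gene start in the C57BL/6J reference, were listed for 8 of the 10 genes. Relb and Nfkbiz were not listed. The kB consensus motif of 10 bases, searched on both strands with overlapping matches joined, was found for 6 of the 8 genes, Rel, Nfkb2, Nfkbia, Nfkbie, Bcl3 and Tnfaip3. Some genes have several listed starts, and the motif was in 8 of the 11 windows of these genes, against 4.51% of all 32851 promoter windows. Windows of Nfkb2 overlap in part, so a match there is counted more than once, and the windows are not all separate. The form GGGNNTTTCC, which overlaps the consensus in part, was found for Rel, Nfkb2, Nfkbia and Tnfaip3, and in 1.63% of all windows. The windows of Rela and Nfkbib held neither motif, which says only that these letters are absent there. The matches follow on the strand of the gene with the motif in capitals, and for Nfkb2 and Tnfaip3 only a part of the matches is shown.
Rel, chr11:23771041-23771071, minus strand: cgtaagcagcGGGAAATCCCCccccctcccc
Nfkb2, chr19:46304688-46304718, plus strand: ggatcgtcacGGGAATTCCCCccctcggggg
Nfkbia, chr12:55492657-55492686, minus strand: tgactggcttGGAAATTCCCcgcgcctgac
Nfkbie, chr17:45555584-45555613, plus strand: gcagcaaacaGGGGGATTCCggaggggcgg
Bcl3, chr7:19822734-19822763, minus strand: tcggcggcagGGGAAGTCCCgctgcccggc
Tnfaip3, chr10:19015403-19015432, minus strand: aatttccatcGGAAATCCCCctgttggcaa

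The motif of Nfkbia lay 29 to 20 bases before the start, that of Rel 92 to 82 bases before it, and that of Bcl3 just after the start. Nfkbia and Tnfaip3 are shown with all 250 bases before the start, since their values differed most among the Myd88+/+ mice. Tnfaip3 had a second match, 125 to 116 bases before its start, which is also in capitals.
Nfkbia, chr12:55492648-55492897, minus strand: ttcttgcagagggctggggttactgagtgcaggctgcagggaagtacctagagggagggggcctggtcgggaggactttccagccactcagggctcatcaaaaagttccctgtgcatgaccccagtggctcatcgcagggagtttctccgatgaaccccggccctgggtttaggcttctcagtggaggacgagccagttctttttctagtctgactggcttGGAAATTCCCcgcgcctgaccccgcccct
Tnfaip3, chr10:19015411-19015660, minus strand: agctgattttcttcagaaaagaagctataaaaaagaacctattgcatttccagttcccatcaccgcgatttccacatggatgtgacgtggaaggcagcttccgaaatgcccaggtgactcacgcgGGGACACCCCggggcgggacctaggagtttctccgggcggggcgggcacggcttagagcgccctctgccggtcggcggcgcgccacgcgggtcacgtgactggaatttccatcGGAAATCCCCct
These letters come from the reference strain, and the NOD sequence was not analysed here. A match is a stretch of letters and was not measured as a bound site in these glands.

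Among the subunits, Rela encodes p65, the activating partner of the classical dimer. Its log2 values were 11.75, 11.40 and 11.43 in the Myd88+/+ mice and 10.86, 11.33 and 11.32 in the Myd88-/- mice. The groups did not overlap, although knockout replicates 2 and 3 came close to the Myd88+/+ range. The mean difference was −0.36 with a standard error (SE) of 0.20 and a 95% interval from −0.80 to 0.091 (limma adjusted p = 0.582). Without Myd88-/- replicate 1, which had the lowest value and a narrow signal span, it was −0.20.

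Rel encodes c-Rel, a subunit best known from lymphocytes. Its log2 values were 8.83, 8.55 and 8.83 in the Myd88+/+ mice and 8.50, 8.76 and 8.05 in the Myd88-/- mice. The groups overlapped, and Myd88-/- replicate 3 lay apart from the rest. The difference of −0.30 (95% interval −0.78 to 0.18, limma adjusted p = 0.666) was −0.11 without that mouse.

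Relb and Nfkb2 encode the partners of the alternative route. Relb read 4.67, 4.92 and 5.15 in Myd88+/+ and 5.05, 5.10 and 5.16 in Myd88-/- mice. All 6 values lay below the background control median, so the size of its difference of 0.19 (95% interval −0.21 to 0.59, limma adjusted p = 0.744) is uncertain. Nfkb2 read 6.01, 5.88 and 6.06 in Myd88+/+ and 5.75, 6.03 and 5.99 in Myd88-/- mice. Its values overlapped throughout, with a difference of −0.062 and a 95% interval from −0.44 to 0.31 (limma adjusted p = 0.929). Without Myd88-/- replicate 1 the sign of the Nfkb2 difference turned, to 0.025.

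**Figure D1:**
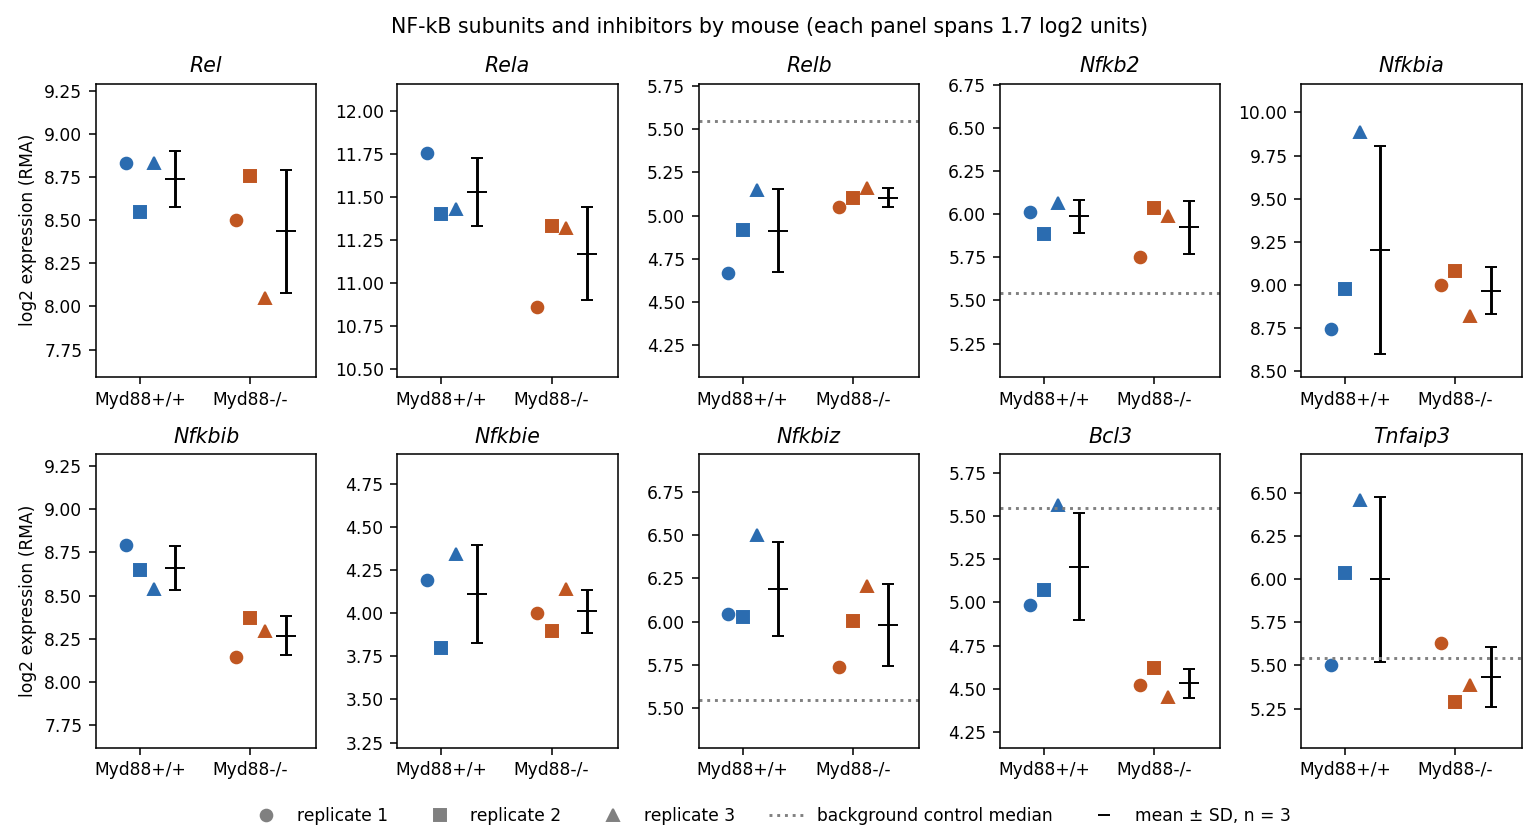
Log2 expression of each of the 10 genes in each mouse, with marker shape for the replicate and the mean ± SD (n = 3) beside each group; the vertical axes differ in level but not in length, and the dotted line is the background control median of 5.55. Rela, Nfkbib and Bcl3 are the 3 genes whose groups do not overlap, and Myd88+/+ replicate 3 stands high for Nfkbia, Tnfaip3 and Bcl3.

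The IkB genes encode the inhibitors that retain NF-kB in the cytoplasm. Nfkbib, which encodes IkB-beta, had log2 values of 8.79, 8.65 and 8.54 in the Myd88+/+ mice and 8.15, 8.37 and 8.29 in the Myd88-/- mice. Its groups were narrow and did not overlap. The mean was 8.66 ± 0.13 against 8.27 ± 0.11 (SD, n = 3 each), a 1.31-fold lower level with a log2 difference of −0.39 (SE 0.16, 95% interval −0.76 to −0.019, limma adjusted p = 0.481). Leaving out each mouse in turn gave −0.45 to −0.32.

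Nfkbia encodes IkB-alpha, which NF-kB induces and which ends its own inducer's activity. Its log2 values were 8.75, 8.98 and 9.89 in the Myd88+/+ mice and 9.0, 9.08 and 8.82 in the Myd88-/- mice. All knockout values lay within the Myd88+/+ range, whose top was set by replicate 3. The SD was 0.60 in Myd88+/+ and 0.13 in Myd88-/- glands. The difference was −0.24 (95% interval −0.87 to 0.39, limma adjusted p = 0.808), and without Myd88+/+ replicate 3 it turned to 0.11.

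Nfkbie, the gene of IkB-epsilon, read 4.19, 3.80 and 4.35 in Myd88+/+ and 3.999, 3.89 and 4.14 in Myd88-/- mice. All of these were below the background control median and overlapped. The difference of −0.10 (limma adjusted p = 0.891) turned to 0.015 without Myd88+/+ replicate 3.

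The nuclear IkB proteins do not retain NF-kB but act on it at its target genes. Bcl3 encodes a partner of NF-kB dimers that can activate or repress. Its log2 values were 4.99, 5.07 and 5.56 in the Myd88+/+ mice and 4.52, 4.62 and 4.45 in the Myd88-/- mice. The groups did not overlap, and the knockout values were close together. The means were 5.21 ± 0.31 and 4.53 ± 0.08 (SD, n = 3 each), with a log2 difference of −0.68, an SE of 0.19 and a 95% interval from −1.11 to −0.24 (limma adjusted p = 0.384). Only the Myd88+/+ replicate 3 value lay above the background control median, so the size is uncertain. Without that mouse the difference was −0.50, and the adjusted p lay between 0.247 and 0.684 over all alternatives. Bcl3 and Relb lie near each other on chromosome 7, with 10 protein-coding genes between them in the RefSeq table of GRCm38.p6, and their differences had opposite signs.

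Nfkbiz encodes IkB-zeta, a cofactor for a second wave of inflammatory genes. It read 6.04, 6.02 and 6.50 in Myd88+/+ and 5.74, 6.001 and 6.21 in Myd88-/- mice. The groups overlapped, with a difference of −0.21 and a 95% interval from −0.67 to 0.25 (limma adjusted p = 0.760). It shrank to −0.052 without Myd88+/+ replicate 3 and to −0.086 without Myd88-/- replicate 1.

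Tnfaip3 encodes A20, an enzyme that edits ubiquitin chains on signalling proteins and so shuts the pathway off upstream of the IkB kinase complex. Its log2 values were 5.501, 6.04 and 6.46 in the Myd88+/+ mice and 5.63, 5.29 and 5.39 in the Myd88-/- mice. Myd88+/+ replicate 1 lay among the knockout values, so the groups overlapped. The means were 5.999 ± 0.48 and 5.43 ± 0.17 (SD, n = 3 each), and the knockout mean lay under the background control median. The difference was −0.56 with an SE of 0.25 and a 95% interval from −1.12 to −0.0085 (limma adjusted p = 0.489). It was −0.33 without Myd88+/+ replicate 3 and −0.81 without Myd88+/+ replicate 1.

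Read together against the whole array, 3 of the 10 genes, Nfkbib, Bcl3 and Tnfaip3, had a limma unadjusted p under 0.05 on the lower side, as did 5.55% of all tested probe sets. On the higher side 0 of 10 did, against 4.5% of all. Groups that did not overlap, with Myd88-/- lower, were seen for 3 of 10 genes, Rela, Nfkbib and Bcl3, and for 7.25% of all probe sets. None was apart on the higher side (0 of 10, against 7.84% of all). After Benjamini-Hochberg adjustment limma called 0 of the 10 and 0 of 22206 probe sets (0.0%), while 1233 were lower and 999 higher at an unadjusted p under 0.05. The 95% intervals reached 0.37 to 0.63 log2 units to either side. For 8 of the 10 genes the interval lay within a 2-fold change in either direction, and for Bcl3 and Tnfaip3 it reached past a 2-fold lower level.

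**Figure D2:**
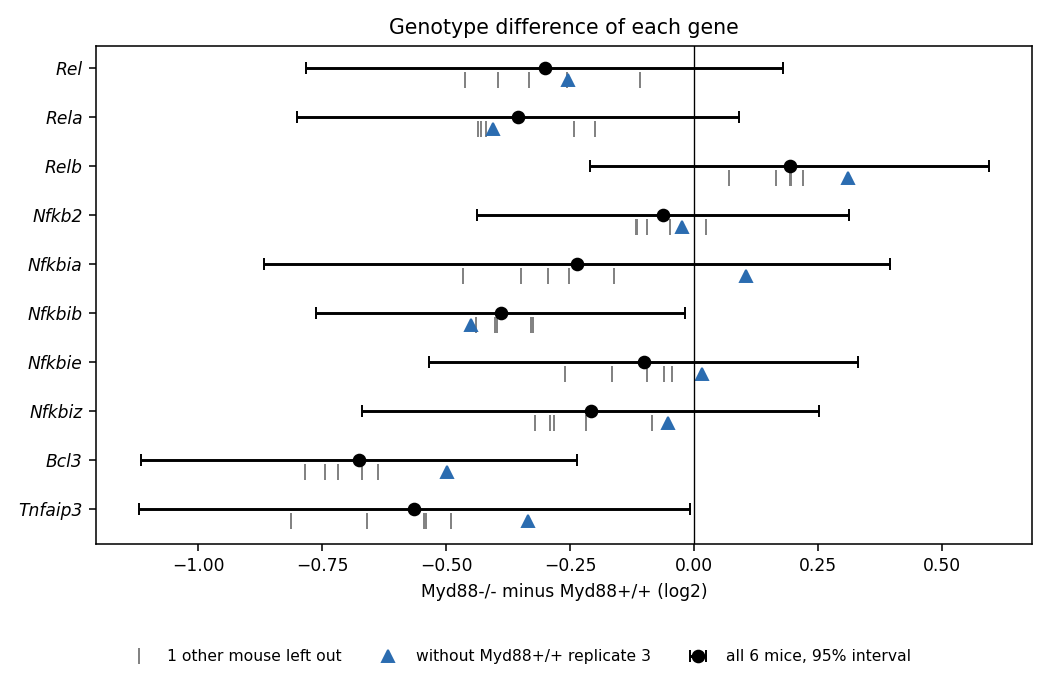
Log2 difference, Myd88-/- minus Myd88+/+, of each gene with its 95% interval from limma (black), the values with 1 mouse left out (grey ticks) and those without Myd88+/+ replicate 3 (blue triangles). The intervals of Nfkbib, Bcl3 and Tnfaip3 exclude 0 before adjustment, and leaving out Myd88+/+ replicate 3 moves Nfkbia from −0.24 to 0.11.

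The Myd88+/+ mice differed among themselves in these genes. Replicate 3 had the highest Myd88+/+ value for 8 of the 10 genes, against 31.0% of all tested probe sets, although for Rel it tied with replicate 1 to the second decimal. Its Nfkbia value exceeded the mean of the other two by 1.03 log2 units, a 2.04-fold higher level. An excess of at least 1 log2 unit was seen in 1.23% of all tested probe sets. The excess was 0.69 for Tnfaip3, 0.53 for Bcl3 and 0.47 for Nfkbiz. Rela and Nfkbib ran the other way, at −0.15 and −0.18, with their highest value in replicate 1.

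These 2 were also the listed genes without a kB motif in their promoter window. All 6 genes with a motif had their highest Myd88+/+ value in replicate 3, with excesses from 0.12 for Nfkb2 to 1.03 for Nfkbia. So did Relb and Nfkbiz, whose windows were not listed, with 0.35 and 0.47. For Rel and Nfkb2 replicate 3 led replicate 1 only narrowly, with 8.832 against 8.829 and 6.06 against 6.01. All 6 values of Nfkb2, Nfkbie, Bcl3 and Relb lay below the negative control median. The split by motif was seen after the values were known, rests on 1 mouse and has no test. Across genotypes the median difference was −0.27 for the 6 genes with a motif and −0.37 for Rela and Nfkbib.

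Markers of leukocytes were also highest in Myd88+/+ replicate 3. The mean of 19 measured markers, each relative to its mean over the 6 mice, was −0.045, 0.37 and 0.99 in Myd88+/+ replicates 1, 2 and 3 and between −0.47 and −0.39 in Myd88-/- mice. Of these 19 markers 18 had a lower mean in Myd88-/- glands, 16 were highest in replicate 3 among Myd88+/+ mice, and 7 had an overall mean under the background median. Ptprc, the pan-leukocyte gene CD45, read 9.28, 9.91 and 11.43 in Myd88+/+ and 8.28, 8.90 and 8.60 in Myd88-/- mice. Of the B cell genes Cd79a was below background in all 6 mice, and Ms4a1, the marker with a higher mean in Myd88-/- glands, had 5.02, 5.503 and 6.06 in Myd88+/+ and 5.64, 5.49 and 5.62 in Myd88-/- mice. The mean of the 10 NF-kB genes on the same scale was 0.034, 0.012 and 0.36 in Myd88+/+ and −0.20, −0.070 and −0.14 in Myd88-/- replicates 1, 2 and 3. Myoepithelial and basal cell markers were lower in 7 of 8, with a median of −0.51, and 6 of the 8 were highest in replicate 3 among Myd88+/+ mice. Their mean on this scale was 0.17, −0.012 and 0.52 in Myd88+/+ and −0.48, 0.14 and −0.34 in Myd88-/- mice. Endothelial and fibroblast markers were lower in 9 of 9, with a median of −0.46, and their mean was 0.26, 0.18 and 0.34 in Myd88+/+ and −0.26, 0.040 and −0.56 in Myd88-/- mice. The part of any of these cell types in the differences of the 10 genes was not tested. Markers of lymph node, a tissue that lies next to the gland, were lower in 6 of 7, with a median of −0.17. Of these, 4 had an overall mean under the background median. Their mean on this scale ran from −0.23 to 0.39 in Myd88+/+ and from −0.13 to −0.049 in Myd88-/- mice. Acinar cell markers were lower in 4 and higher in 3 of 8, with a median of −0.0455. Duct cell markers were lower in 5 and higher in 5 of 11, with a median of 0.0. At an unadjusted p under 0.05 in limma, 2 duct markers were lower and 0 higher, against 5.55% and 4.5% of all tested probe sets. These were Ascl3, with a difference of −0.96, and Foxi1, with −0.60. Groups did not overlap for 3 lower and 0 higher duct markers, against 7.25% and 7.84% of all. In each of these 2 lists the remaining gene did not differ. Fat and muscle markers were lower in 3 and higher in 5 of 8, with a median of 0.13, and 6 of the 8 had an overall mean under the background median.

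**Figure D3:**
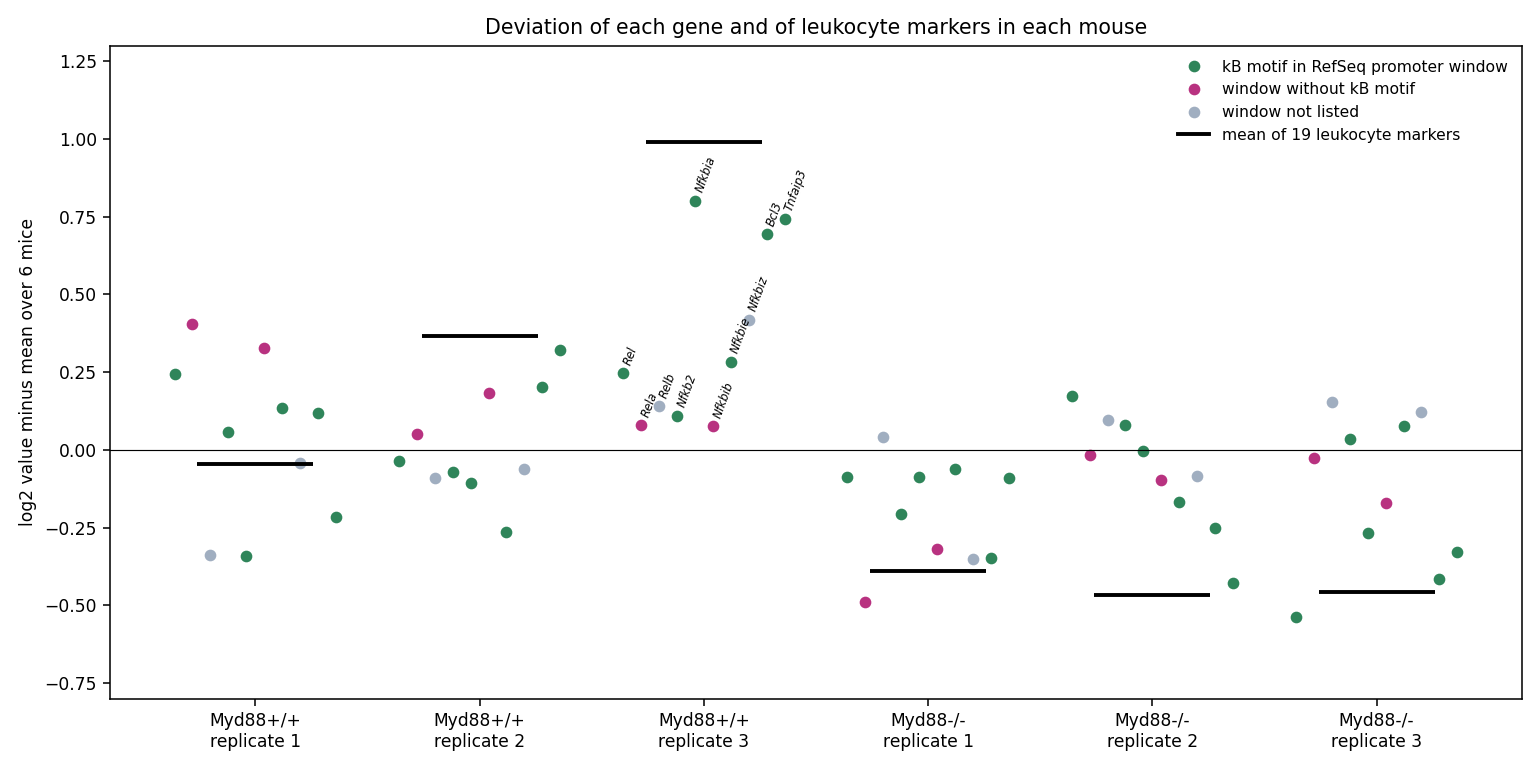
Log2 value of each gene minus its mean over the 6 mice, plotted for each mouse, with colour for the kB motif in its RefSeq promoter window and a black bar for the mean of 19 leukocyte markers. In Myd88+/+ replicate 3 all 10 genes lie above their mean and the leukocyte bar stands at 0.99, while in the Myd88-/- mice it lies between −0.47 and −0.39.

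The spread between mice was wider in Myd88+/+ than in Myd88-/- glands for 7 of the 10 genes, as for 45.6% of all named genes. The median SD of the 10 was 0.26 log2 units in Myd88+/+ and 0.14 in Myd88-/- glands. The exceptions were Rel, Rela and Nfkb2, 3 of the 4 subunit genes among the 10.

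The rest of the pathway was read from lists of its parts, and no gene in them passed limma's test over all probe sets. Of the IkB kinase complex and its upstream kinases 12 of 16 listed genes were measured, 8 of them lower and 4 higher, with a median of −0.094. Leaving out Myd88+/+ replicate 2 moved that median to −0.23. Leaving out Myd88-/- replicate 1 gave −0.24, and leaving out Myd88-/- replicate 3 gave −0.031. At an unadjusted p under 0.05, 3 were lower and 1 was higher, against 5.55% and 4.5% of all tested probe sets. The 3 included Tab1 and Tab2, adaptors of the kinase TAK1, with −0.78 and −0.51. The higher gene was Ikbke, a kinase of interferon induction, at 7.06, 7.03 and 7.12 in Myd88+/+ and 7.68, 7.68 and 7.31 in Myd88-/- mice. Its groups did not overlap (difference 0.49, limma adjusted p = 0.433).

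Among TRAF adaptors and ubiquitin enzymes 14 of 18 measured genes were lower and 4 higher, with a median of −0.17, and 4 were lower at an unadjusted p under 0.05, against 5.55% of all tested probe sets. The median was −0.018 without Myd88+/+ replicate 1, −0.28 without Myd88+/+ replicate 2 and −0.090 after quantile normalization. Birc3, the ubiquitin ligase cIAP2 and itself an NF-kB target, read 10.12, 10.54 and 10.95 in Myd88+/+ and 9.38, 10.01 and 9.09 in Myd88-/- mice, a 2.06-fold lower level (difference −1.04, limma adjusted p = 0.368). Its relative Birc2 had −0.75. Rnf31, the catalytic subunit of the linear ubiquitin ligase, had narrow groups, with 6.89 ± 0.10 and 6.30 ± 0.09 (SD, n = 3 each, difference −0.59, limma adjusted p = 0.368).

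Of the 19 measured further inhibitors 12 were lower and 7 higher, with a median of −0.11, and 3 were lower at an unadjusted p under 0.05, against 5.55% of all tested probe sets. The sign of that median turned, to 0.022 after quantile normalization and 0.0051 without Myd88+/+ replicate 3. It was −0.037 when Myd88+/+ replicate 1 was left out. Leaving out Myd88-/- replicate 3 gave −0.0049, and leaving out Myd88-/- replicate 2 gave −0.19. Tnip1, whose product binds A20 and works with it, read 7.30, 6.86 and 7.10 in Myd88+/+ and 6.51, 6.37 and 6.60 in Myd88-/- mice. The groups did not overlap, with a difference of −0.59 (limma adjusted p = 0.388).

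Receptors of the classical route were lower in 10 and higher in 4 of 14 measured genes, with a median of −0.18. It was −0.096 without Myd88+/+ replicate 2 and −0.11 without Myd88+/+ replicate 3. Il17ra, a receptor chain for interleukin-17, had −0.83, and Il1rap, the shared chain of interleukin-1 family receptors that signal through Myd88, had 0.40 with groups that did not overlap (limma adjusted p = 0.489). Receptors and ligands of the alternative route were lower in 6 and higher in 5 of 11, with a median of −0.081 that turned to 0.013 without Myd88+/+ replicate 3 and to 0.0043 without the dimmest 30% of probe sets. Of these, 0 had an unadjusted p under 0.05 in limma, against 5.55% of all tested probe sets on the lower and 4.5% on the higher side.

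Inflammatory target genes of NF-kB were a mixed list. Of 29 measured, 11 were lower and 18 higher, with a median of 0.12, and 13 had a mean under the background control median. The median difference was −0.0088 without the dimmest 30% of probe sets and 0.049 after quantile normalization. Groups did not overlap for 4 lower and 3 higher genes, against 7.25% and 7.84% of all tested probe sets. At an unadjusted p under 0.05 in limma, 3 were lower and 0 higher, against 5.55% and 4.5% of all. Lcn2, an iron-binding protein of mucosal defence, read 7.60, 8.36 and 8.42 in Myd88+/+ and 6.31, 7.17 and 6.09 in Myd88-/- mice, a 3.04-fold lower level (limma adjusted p = 0.321). Csf1, the macrophage growth factor, had −0.98, with 11.43 ± 0.13 and 10.45 ± 0.47 (SD, n = 3 each). Tnf lay below background in all 6 mice.

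**Figure D4:**
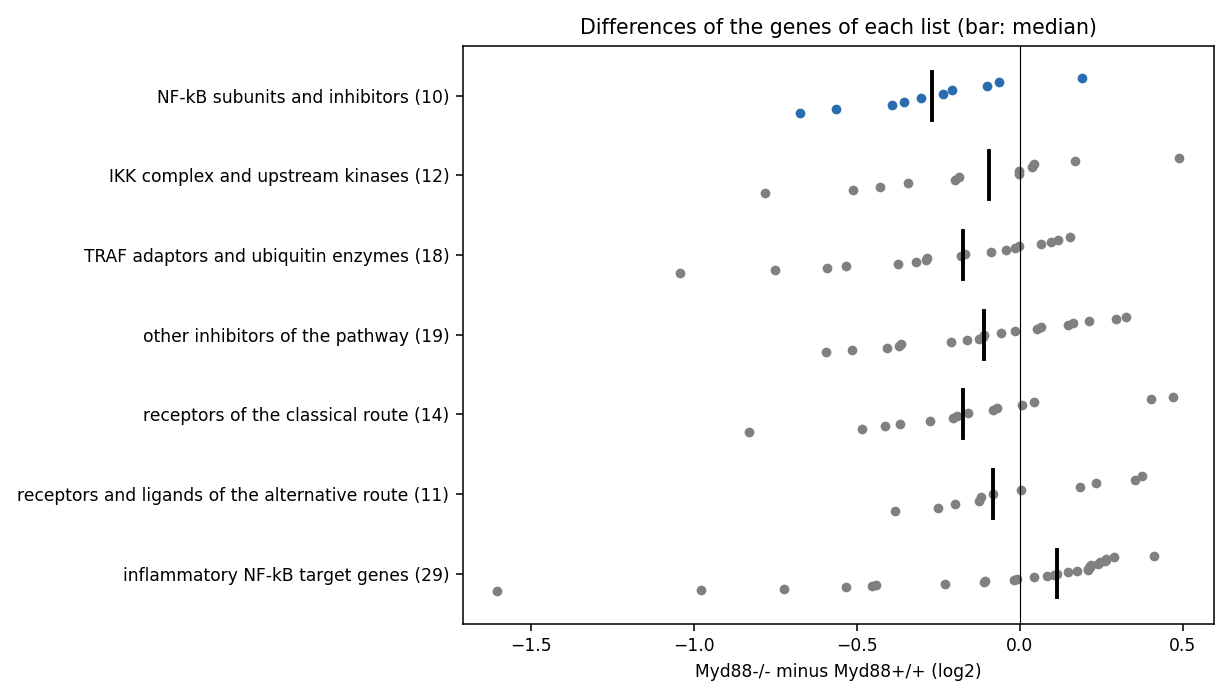
Log2 difference, Myd88-/- minus Myd88+/+, of every measured gene of the 10 and of 6 pathway lists (points; cell type markers are not drawn), with the median of the list (black bar) and the number of genes in brackets. The 10 NF-kB genes have a median of −0.27, and the medians of the 6 pathway lists run from −0.18 to 0.12.

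For Bcl3, the gene of the 10 with the smallest p, the 3 named genes with the most similar profile over the 6 mice were Ugp2, Map4k1 and H2-T22. Likeness was the root mean square distance of the log2 values, each gene centred on its own mean, and was 0.057, 0.061 and 0.070 log2 units against a median of 0.453 over 19504 genes. Ugp2, an enzyme of UDP-glucose synthesis, read 13.25, 13.23 and 13.88 in Myd88+/+ and 12.84, 12.94 and 12.73 in Myd88-/- mice. Map4k1, a kinase of blood cells, had a difference of −0.77 and lay below background in all 6 mice. H2-T22, of the MHC class I family, had −0.71, and its near-identical relatives can share probes. Each has its highest value in Myd88+/+ replicate 3 and groups that do not overlap, the pattern by which they were picked.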

How the data were processed

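Expression was measured on Clariom S arrays, 1 per mouse, in 3 Myd88+/+ and 3 Myd88-/- glands. Per the labels, the authors deposited log2 values made by RMA, the robust multi-array average, with Transcriptome Analysis Console software. The sources used here give no software version, RMA variant or genome build for the annotation. Differences near background are shrunk by RMA. Values ran from 2.26 to 19.93. Of 28846 probe sets, 6640 controls were left out. The 22206 tested held 19572 with 1 gene symbol, 0 with several and 2634 unnamed here. The highest-mean probe set stood for a gene. No pair of arrays was identical (0 of 15).

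Genotypes were compared by limma (3.58.1, under R 4.3.3; lmFit and eBayes without covariates). Benjamini-Hochberg adjustment ran over the tested probe sets, and an adjusted p under 0.05 was a call. The number of arrays limits the precision. The 10 genes and all lists were chosen with earlier results of these data known, so their counts are descriptions. Of 187 listed pathway and marker genes 173 were matched. Named genes were the 10, Myd88 and the genes of each list with the smallest p. Also named were the 3 profiles nearest to that of the gene of the 10 with the smallest p. Ptprc, Cd79a, Ms4a1, Tnf, Bhlha15, Prol1 and Klk1 were picked after their values were seen. Motifs were searched in RefSeq promoter windows of GRCm38.p6. Alternatives were quantile normalization, median centring, leaving out the dimmest 30%, an intensity trend plus robust variances, blocking on the replicate number, and omitting each mouse.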

Additional observations from a re-analysis of the deposited data

How the results depend on the processing

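Of 109 values of single genes under 11 alternatives, 106 kept their direction and 3 turned, each on leaving out 1 mouse. The filter on the dimmest 30%, the intensity trend with robust variances and the replicate block cannot change a gene's log2 difference. Directions kept under them were fixed in advance and say nothing about stability. Nfkbia turned to 0.11 (−0.47 to 0.11 on leaving out 1 mouse) and Nfkbie to 0.015 (−0.26 to 0.015) without Myd88+/+ replicate 3, and Nfkb2 turned to 0.025 (−0.12 to 0.025) without Myd88-/- replicate 1. No gene of the 10 was called under any of the 11 alternatives (smallest limma adjusted p 0.247). The median of the 10 ran from −0.37 to −0.15 on leaving out 1 mouse, and was −0.21 after quantile normalization. With Myd88+/+ replicate 3 left out, 7 of the 10 were lower. Probe sets called over the whole array numbered 2 after median centring, 4 with an intensity trend and robust variances, and 0 to 5 on leaving out 1 mouse (5 without Myd88+/+ replicate 1), all of them lower. Same-numbered mice did not deviate together (correlations of −0.11, −0.15 and −0.019, against −0.12 to 0.20 for unlike-numbered mice). With 3 mice a group these correlations cannot show whether the numbers mark pairs. The fit with the replicate number as a block called 0 probe sets, as did the fit without it. Its median of −0.27 was the same by design, since each number holds 1 mouse of each genotype. No gene of the 10 had a second probe set, so that alternative gave no value, and Nfkbie was dropped by the filter on the dimmest 30%. Signal near the background or negative controls limits Relb, Nfkbie, Bcl3, Tnfaip3, Nfkb2 and Nfkbiz.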
